A study of Mus musculus with 8 samples.

Results

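The genes of MHC class II antigen presentation were followed in cultured mouse B cells with and without Prmt5. They are 10 of the 39017 genes in the expression table, taken by symbol: H2-Aa, H2-Ab1, H2-Eb1, Cd74, Ciita, H2-DMa, H2-DMb1, H2-DMb2, H2-Oa and H2-Ob. The rule takes them by name and uses no measured value, although they were proposed with earlier results of these data known. All 10 passed the filter on low values, a mean of at least 10 normalized counts, which 16250 genes passed in all.

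The cells were iGBs, splenic B cells of C57BL6/J mice grown for 4 days on 40LB feeder cells. These feeders are fibroblasts that express CD40L and BAFF, and the medium held IL-4 at 1 ng per mL. The Prmt5-null cultures carried Prmt5 F/F Cγ1-cre, and the control cultures carried Cγ1-cre with no floxed Prmt5, so the recombinase was present in both groups. Cγ1-cre is switched on in B cells as they are activated, so that the gene is lost during the culture and not before it, and cells that escape deletion stay in the sample. Each genotype had 4 libraries of RNA, each from 1 mouse, and libraries carry the labels PRMT5-10617, PRMT5-10618, PRMT5-10770 and PRMT5-10771 for Prmt5-null iGBs and CTRL-10370, CTRL-10596, CTRL-10597 and CTRL-10650 for controls, each with the number of its mouse. The cultures came from 2 experiments, and the labels do not say which library belongs to which.

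MHC class II molecules show peptides from the endocytic pathway to CD4+ T cells, which is how a B cell that has taken up its antigen obtains T cell help. The α and β chains pair in the endoplasmic reticulum with the invariant chain, encoded by Cd74, which blocks the groove and directs the complex to endosomes. There H2-DM exchanges the last invariant chain fragment, CLIP, for peptide, and H2-O, which is found mainly in B cells, restrains H2-DM. The coactivator CIITA, encoded by Ciita, binds no DNA itself but is recruited to the S, X and Y boxes of class II promoters by RFX, CREB and NF-Y proteins.

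Letters of the X and Y boxes were looked for in the promoters of these genes, as a description. Of the 10 genes, 7 had an entry in the RefSeq promoter table of GRCm38.p6, and H2-Ab1, Cd74 and Ciita had none. The letters AACNNATG, the core of the X box, and TGATTGG, the Y box with its inverted CCAAT, were searched in the 250 bases before each start. Each line holds 60 bases, 5′ to 3′ on the strand of the gene. Capitals mark the motifs, with the Y box always shown and the X core only where it lies 8 to 40 bases before it.

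H2-Aa, chr17:34287859-34287918, minus strand: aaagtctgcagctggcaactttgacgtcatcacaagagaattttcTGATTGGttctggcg
H2-Eb1, chr17:34305761-34305820, plus strand: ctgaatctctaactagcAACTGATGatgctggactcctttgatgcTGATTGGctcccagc
H2-DMb1, chr17:34153083-34153142, plus strand: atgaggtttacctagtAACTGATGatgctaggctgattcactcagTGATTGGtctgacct
H2-DMb2, chr17:34145112-34145171, plus strand: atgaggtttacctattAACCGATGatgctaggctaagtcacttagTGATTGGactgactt
H2-Oa, chr17:34092289-34092348, plus strand: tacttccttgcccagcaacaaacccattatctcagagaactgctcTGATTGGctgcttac
H2-Ob, chr17:34238801-34238860, plus strand: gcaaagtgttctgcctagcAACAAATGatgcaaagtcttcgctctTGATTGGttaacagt
H2-Eb2, chr17:34325528-34325587, plus strand: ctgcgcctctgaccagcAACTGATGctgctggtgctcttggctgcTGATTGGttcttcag

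TGATTGG was present in 6 of the 7 genes with an entry, and H2-DMa, whose 2 promoter entries held neither motif, was the exception. H2-Eb2, a further class II β chain gene that is not among the 10, is shown because its level is compared with theirs below. The X core came before the Y box in H2-Eb1, H2-DMb1, H2-DMb2 and H2-Ob, with 18 to 21 bases between them. Of 32851 mouse promoters of the same length, 7.71% held AACNNATG and 7.23% held TGATTGG on either strand. The ordered pair was in 0.0396% of them, which is 13 promoters, and 5 of those are the class II genes H2-Eb1, H2-Eb2, H2-DMb1, H2-DMb2 and H2-Ob. The 2 motifs were chosen after the promoter sequences were seen, so these counts are a description and no test of the class II genes. A match describes the letters in the window and not binding. The lack of an exact match does not show that a box is absent.

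The expression values are counts that the authors divided by a DESeq2 size factor per library, called normalized counts here. They came out as whole reads in every library, with totals from 42752293 to 47174851 in Prmt5-null and from 36731721 to 50366174 in control libraries. Prmt5 itself stood between 1060 and 1994 normalized counts in Prmt5-null libraries and between 11084 and 13087 in controls, so the genotype labels matched in all 8. Its mean in Prmt5-null iGBs was 13.1% of that in controls. In bulk RNA, fewer cells that express a gene and less RNA per cell cannot be told apart.

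Levels of different genes were ranked as normalized counts per kb of exon, with exonic lengths from GENCODE M21. Each length merges all annotated exons of the gene. It can exceed the length of the transcripts present, and the order of the genes depends on it. In controls Cd74 stood first, at 125214 ± 7327 normalized counts per kb of exon (SD, n = 4). H2-Eb1 followed at 33567 ± 2380 and H2-Ab1 at 32572 ± 2678, and the libraries of these 2 genes overlapped. H2-Aa had 22398 ± 1409 and H2-DMb2 had 20437 ± 499 per kb, again with overlap. H2-DMa stood at 5967 ± 251 and H2-DMb1 at 4515 ± 402 per kb. The 3 lowest genes were Ciita at 2425 ± 197, H2-Oa at 2109 ± 147 and H2-Ob at 1815 ± 351 per kb, and neighbours in this order overlapped. In Prmt5-null iGBs the order changed at 2 places: H2-DMb2, at 21193 ± 702, stood above H2-Aa, at 17630 ± 538, and H2-Ob, at 1812 ± 138, above H2-Oa, at 1197 ± 85.4 per kb. The 10 genes together took 1.17% to 1.30% of all reads in control libraries and 1.00% to 1.11% in Prmt5-null libraries, ranges that did not overlap. The plot of levels per kb of exon shows both genotypes on one scale.

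**Figure D1:**
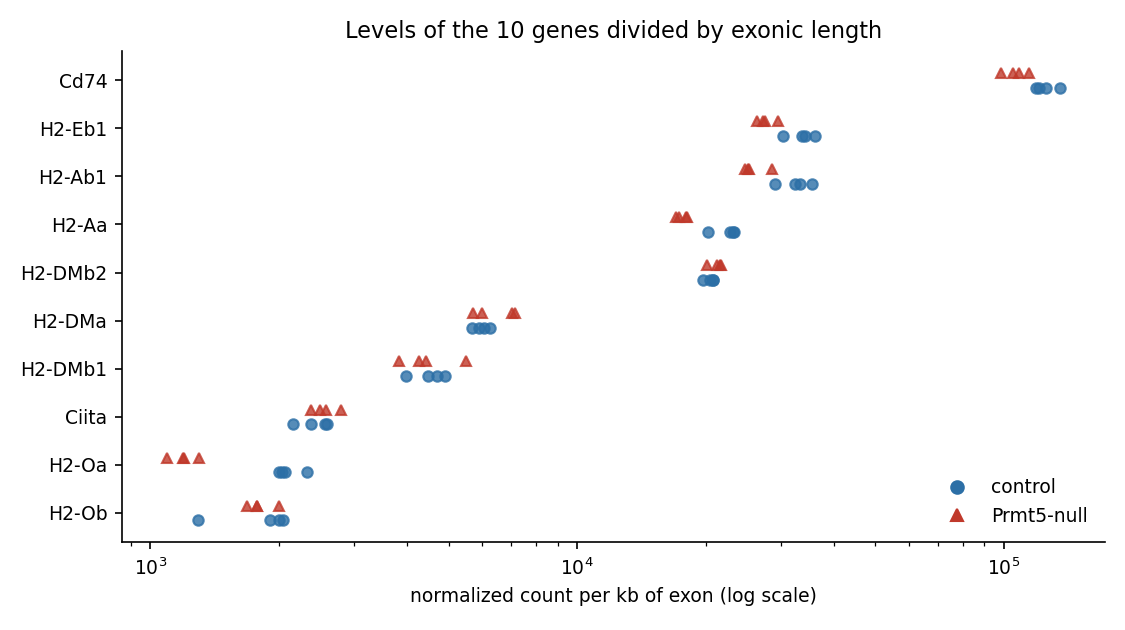
Normalized counts per kb of exon, on a log axis, for the 10 genes, with 1 point per library (circles, 4 controls; triangles, 4 Prmt5-null). Cd74 lies highest, at 125214 per kb on average in controls, and the triangles of H2-Oa lie apart to the left of its circles.

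Genotypes were compared with limma on log2(normalized count + 1), fitted across all 16250 genes that passed the filter, and p-values were adjusted over all of them by the method of Benjamini and Hochberg. A gene counted as lower or higher at an adjusted p below 0.05. By that test 3 of the 10 genes were lower in Prmt5-null iGBs (H2-Oa, H2-Aa and H2-Ab1), 0 were higher and 7 were not called. Of all genes tested, 7.33% were lower and 6.51% higher. With a change of at least 1.5-fold as a second condition, H2-Oa was the 1 gene left, against 2.99% of all genes lower and 3.49% higher. In 5 of the 10 genes (H2-Aa, H2-Ab1, H2-Eb1, Cd74 and H2-Oa) the highest Prmt5-null library was under the lowest control. Among all genes tested, 10.2% were separated in that direction and 9.67% in the other. The median log2 fold change of the 10 genes was -0.12, beside 0.00 over all genes tested.

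**Figure D2:**
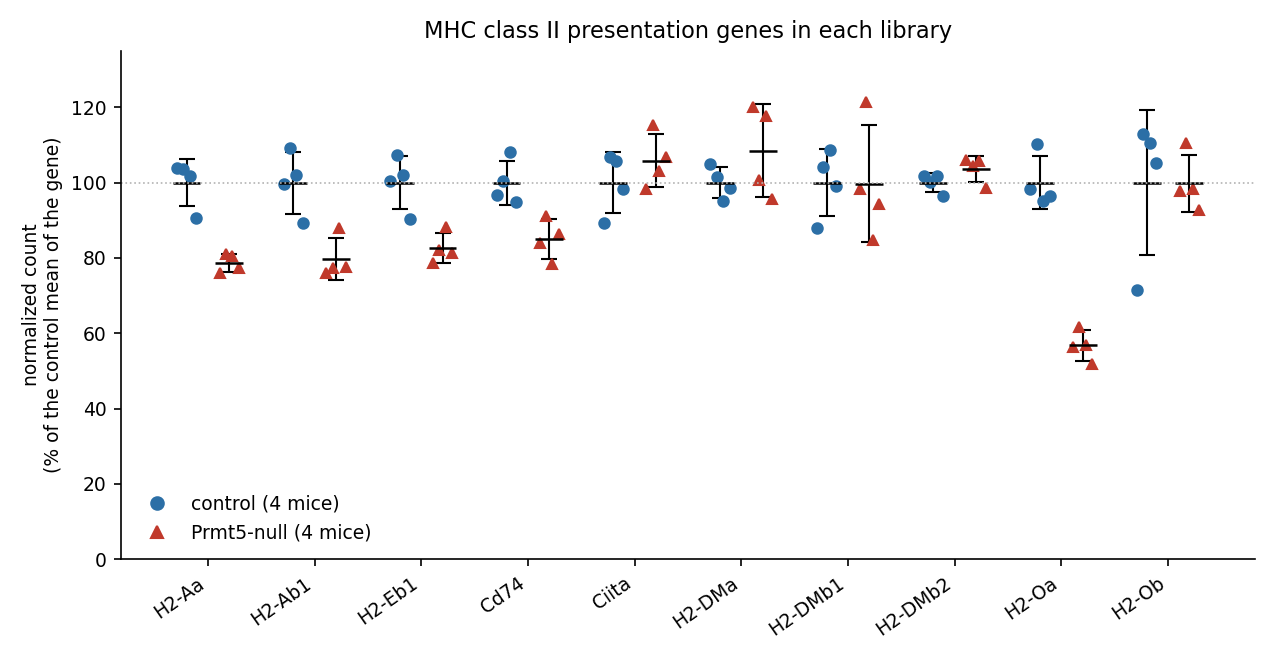
Normalized counts of each gene as a percentage of its control mean, with 1 point per library (circles, 4 control mice; triangles, 4 Prmt5-null mice) and black lines at the mean ± SD. The triangles of H2-Aa, H2-Ab1, H2-Eb1, Cd74 and H2-Oa all lie below the circles, and those of the other 5 genes overlap them.

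The genes of the classical class II chains lie together on chromosome 17 of GRCm38. H2-Aa (chr17:34282744-34287823, minus strand) encodes the α chain of I-A. It had 64654, 68844, 68500 and 65829 normalized counts in PRMT5-10617, PRMT5-10618, PRMT5-10770 and PRMT5-10771. Among controls, CTRL-10650 had 88405, CTRL-10370 had 88231, CTRL-10596 had 86487 and CTRL-10597 had 77144. All 4 Prmt5-null libraries were below the lowest control, and their mean was 66957 ± 2043 against 85067 ± 5352 (SD, n = 4 each). H2-Aa was lower, by -0.34 on the log2 scale (SE 0.085, 95% interval -0.53 to -0.16, adjusted p = 0.0192 by limma), which is 78.7% of the control mean.

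H2-Ab1 (chr17:34257689-34269419, plus strand) encodes the β chain that pairs with it. Its normalized counts were 63662, 64564, 73640 and 64920 in Prmt5-null libraries and 83358, 91233, 85356 and 74627 in controls, each in the order of mice given for H2-Aa. The groups came close at 1 library each, the highest Prmt5-null library, PRMT5-10770, and the lowest control, CTRL-10597, but did not overlap. H2-Ab1 was lower, by -0.33 (SE 0.094, 95% interval -0.53 to -0.12, adjusted p = 0.0395 by limma), at 79.7% of the control mean of 83644 ± 6878 (SD, n = 4). With the experiment as a block, it was called in 9 of 18 placements of the libraries, with an adjusted p of at most 0.0711.

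H2-Eb1 (chr17:34305867-34316674, plus strand) encodes the β chain of I-E. It had 51336, 53631, 57527 and 53024 normalized counts in Prmt5-null libraries and 65505, 70038, 66521 and 58955 in controls, in the same order of mice. The libraries were arranged as for H2-Ab1, with no overlap. The difference was -0.27 (SE 0.086, 95% interval -0.46 to -0.09), at 82.6% of the control mean, and it did not pass the adjusted test (adjusted p = 0.0528 by limma). C57BL6/J mice lack a functional I-E α chain, and in these libraries H2-Ea-ps had a mean of 8.47 normalized counts in Prmt5-null and 7.73 in control iGBs, under the filter.

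The calls for these chains depended on single libraries. Without PRMT5-10617 or PRMT5-10771, or without CTRL-10650, CTRL-10370 or CTRL-10596, H2-Aa had an adjusted p between 0.0565 and 0.0681, and H2-Ab1 between 0.0844 and 0.112. H2-Ab1 also lost its call without PRMT5-10618, at 0.0695, and H2-Eb1 gained one without PRMT5-10770, at 0.0272, or without CTRL-10597, at 0.0446. The fold change itself moved little, from -0.39 to -0.32 for H2-Aa, from -0.38 to -0.28 for H2-Ab1 and from -0.32 to -0.24 for H2-Eb1 as each library was left out.

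The proportions of the 3 chains to each other overlapped between the genotypes. The ratio of H2-Aa to H2-Ab1 in normalized counts per kb was 0.629 to 0.721 in Prmt5-null and 0.654 to 0.717 in control libraries. H2-Eb1 to H2-Ab1 was 1.03 to 1.10 and 1.01 to 1.04 on the same scale. Across the 8 libraries, H2-Eb1 was the gene whose log2 values were most like those of H2-Ab1 among 13299 others with a mean of at least 50 (Pearson r = 0.995). Next came Tmem261 at 0.993, Tmem219 at 0.991, the immunoproteasome subunit gene Psmb9, which lies in the same region, at 0.988, and Mettl15 at 0.982. These r values describe 8 points that share the difference between the genotypes and the scaling, and no test was made of them.

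Cd74, the invariant chain gene, had 176671, 191638, 165012 and 181800 normalized counts in Prmt5-null libraries and 203266, 211029, 227209 and 199433 in controls, in the same order of mice. All Prmt5-null libraries were below all controls, with means of 178780 ± 11082 and 210234 ± 12302 (SD, n = 4 each). The log2 fold change was -0.23 (95% interval for this gene alone -0.46 to -0.01), at 85.0% of the control mean, and it did not pass the adjusted test (adjusted p = 0.149 by limma). Relative to the sum of H2-Aa, H2-Ab1 and H2-Eb1, Cd74 stood at 1.29 to 1.61 in Prmt5-null and 1.33 to 1.4998 in control libraries, in normalized counts per kb, so the ratio overlapped between the genotypes. A microRNA gene in the same orientation, Mir5107, shares 12 exonic bases with Cd74. It listed 17604 to 19739 normalized counts in Prmt5-null and 20676 to 23699 in control libraries, and reads of the 2 genes there cannot be told apart by strand.

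The H2-DM genes encode the peptide editor. H2-DMa (chr17:34119541-34139101, plus strand), its α chain, had 24710, 20693, 24226 and 19651 normalized counts in Prmt5-null libraries and 21582, 20895, 19557 and 20262 in controls, in the same order of mice. PRMT5-10617 and PRMT5-10770 were above all controls and the other 2 Prmt5-null libraries were within their range. The log2 difference was 0.11 (95% interval -0.08 to 0.31, adjusted p = 0.442 by limma). Brd2, which lies head to head with it, shares 360 exonic bases at its 5′ end on the opposite strand.

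H2-DMb2 (chr17:34143307-34151555, plus strand) carried most of the β chain reads, 35232 to 37862 normalized counts in Prmt5-null and 34458 to 36312 in control libraries. Its log2 difference was 0.05 (95% interval -0.10 to 0.21, adjusted p = 0.674 by limma). H2-DMb1 (chr17:34153072-34160230, plus strand) had 6435 to 9209 and 6683 to 8256 normalized counts, with a difference of -0.01 (95% interval -0.25 to 0.22, adjusted p = 0.954 by limma). The 2 β genes are near copies, with 94.7% identity over 1218 aligned bases of their longest transcripts, and 22.7% of the 50-base words of H2-DMb1 also occur in H2-DMb2. Only uniquely mapped reads were counted, so reads that fit both genes are missing and their levels and split are uncertain. Their sum, which lacks such reads too, was 44587 ± 1729 in Prmt5-null and 43293 ± 1089 in control iGBs (SD, n = 4 each). For all 3 H2-DM genes the interval of the difference excludes a fall of 1.5-fold.

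H2-O, the restraint on H2-DM, is likewise made of an α and a β chain. H2-Oa (chr17:34092340-34095234, plus strand) had 1675, 1831, 1691 and 1538 normalized counts in Prmt5-null libraries and 2912, 3271, 2819 and 2864 in controls, in the same order of mice. The 2 groups were far apart, with every control above every Prmt5-null library. The means were 1684 ± 120 and 2967 ± 206 (SD, n = 4 each). H2-Oa was lower, by -0.82 (SE 0.082, 95% interval -0.995 to -0.64, adjusted p = 0.000129 by limma), at 56.8% of the control mean. Its p-value was number 49 in order among all 16250 genes, and leaving out any library kept the call. An antisense gene, BC051537, shares 321 exonic bases with it but had a mean of only 28.1 normalized counts.

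H2-Ob (chr17:34238903-34254414, plus strand), the β chain gene, had 9545, 10802, 9594 and 9058 normalized counts in Prmt5-null libraries and 6970, 11026, 10792 and 10277 in controls. CTRL-10650 was the lowest of all 8 and the other 3 controls were at the upper end, so that the groups overlapped widely. The log2 difference was 0.02 (95% interval -0.27 to 0.31, adjusted p = 0.949 by limma). It was -0.14 without CTRL-10650 (adjusted p = 0.335). The ratio of H2-Oa to H2-Ob, in normalized counts per kb, was 0.648 to 0.674 in Prmt5-null libraries, a narrow range, and 0.999 to 1.60 in controls, the highest being CTRL-10650.

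**Figure D3:**
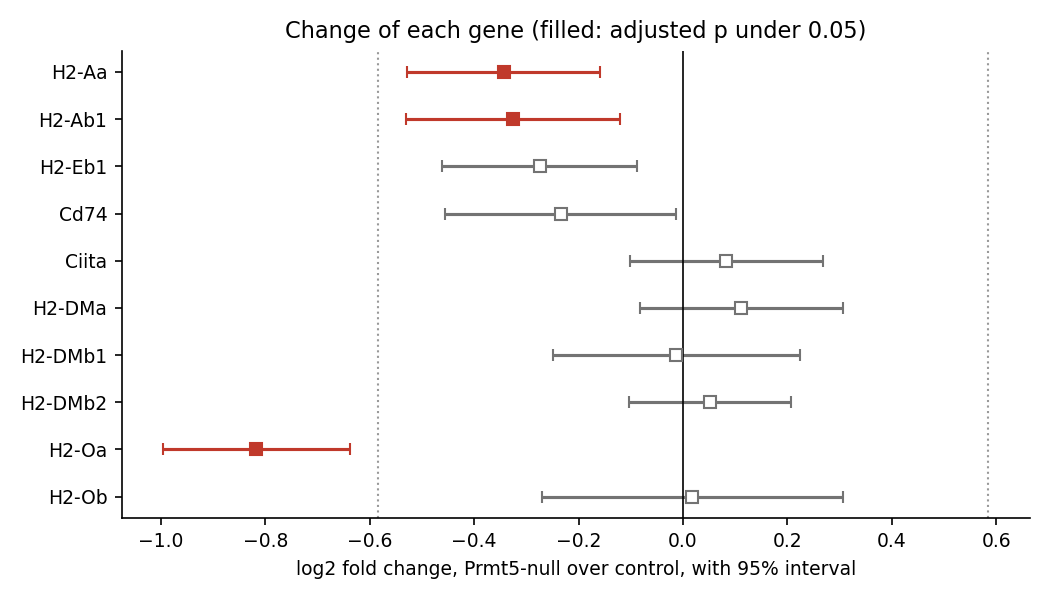
Log2 fold change of each gene, Prmt5-null over control, with its 95% interval from limma, 4 libraries per genotype. Filled squares passed an adjusted p of 0.05, dotted lines mark a 1.5-fold change, and H2-Oa at -0.82 is the 1 gene beyond them.

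Because the chains, the editor and its restraint act on each other, their proportions within a library were also taken, as descriptions with no test. In normalized counts per kb, the H2-DM genes summed to 0.426 to 0.488 of H2-Aa, H2-Ab1 and H2-Eb1 in Prmt5-null libraries and to 0.329 to 0.377 in controls. The lowest Prmt5-null library thus lay above the highest control, and the mean ratio was 129% of that in controls. The chains in the divisor stood at 78.7%, 79.7% and 82.6% of their control means, and no H2-DM gene was called. This ratio is therefore no separate result about H2-DM. Not divided by length, H2-O to H2-DM was 0.160 to 0.188 in Prmt5-null and 0.153 to 0.222 in control libraries, which overlapped through CTRL-10650, whose H2-Ob was low. Each gene was also divided by its merged exonic length, which lowers the weight of the long H2-Ob. The ratio was then 0.0891 to 0.101 in Prmt5-null and 0.108 to 0.140 in control libraries, without overlap. The separation of the genotypes in this ratio thus depends on the lengths used.

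Ciita (chr16:10480059-10528418, plus strand) encodes the coactivator of class II transcription. Its normalized counts were not called different. The Prmt5-null libraries had 22746, 26645, 23833 and 24670 normalized counts and the controls 20650, 24722, 24431 and 22705, in the same order of mice. The groups overlapped over most of their range, with a difference of 0.08 (95% interval -0.10 to 0.27, adjusted p = 0.558 by limma), and the interval excludes a fall as large as the estimate for H2-Aa. Dexi shares 329 exonic bases with Ciita on the opposite strand and had 981 ± 72.3 normalized counts in Prmt5-null and 1267 ± 60.6 in control iGBs (SD, n = 4 each). The genes most like Ciita across the 8 libraries were mmu-mir-6990 (Pearson r = 0.980), Gfi1 at 0.970, Rfesd at 0.965, Vps18 at 0.957 and Trim12c at 0.955, none of them a class II gene.

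Ciita also had splicing values in the deposited files. The authors deposited the events that differed between the genotypes, 1918 in 1519 genes, and Ciita was the 1 gene of the 10 with any; among genes with a mean above 50, 11.4% had one. The values are inclusion levels, for a cassette exon the estimated share of transcripts that hold it, as 4 values for each genotype that name no library. The first event is a cassette exon of 63 bases at chr16:10503666-10503728, the fourth of 19 exons and a multiple of 3 in length, which is held by 7 of 8 annotated transcripts. The exon in capitals, with 20 bases of the spliced transcript on either side, reads:

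Ciita exon of 63 bases: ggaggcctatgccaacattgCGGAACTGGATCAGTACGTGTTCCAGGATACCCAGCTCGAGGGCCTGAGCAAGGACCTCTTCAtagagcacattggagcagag

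Its inclusion level was 0.967, 0.968, 0.975 and 0.977 in controls and 0.788, 0.794, 0.823 and 0.834 in Prmt5-null iGBs. Even the highest Prmt5-null value was below the lowest control, and the means differed by -0.162. These levels rest on 4884 reads. In controls 2518 reads supported inclusion and 49 skipping, with 8 to 17 skipping reads per library. In Prmt5-null iGBs 2004 supported inclusion and 313 skipping, with 63 to 89 per library. None of the annotated transcripts joins the flanking exons directly across it.

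The second event sets the next 2 exons against each other, one of 81 bases at chr16:10503867-10503947 and one of 45 bases at chr16:10506196-10506240, both multiples of 3. The inclusion level of the 81-base exon, as set against the 45-base exon, was 0.037, 0.045, 0.049 and 0.058 in controls. In Prmt5-null iGBs it was 0.180, 0.191, 0.193 and 0.198. The groups were again apart, on 1873 reads. The 2 exons are consecutive, numbers 5 and 6 of 19, so a transcript can hold both. This level is therefore no share of all transcripts. The junction that joins the exon before the 63-base exon to the 81-base exon counts in both events, so they are not independent. These events were deposited because they differed between the genotypes, and the levels are given as a description with no test.

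**Figure D4:**
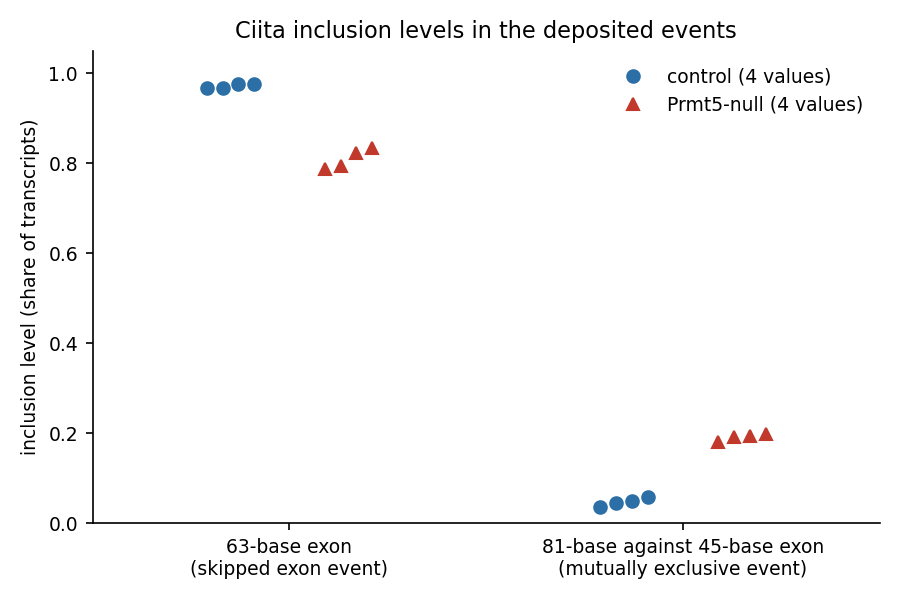
Inclusion levels of the 2 deposited Ciita events, from 0 to 1, with 4 values per genotype in rising order (circles, control; triangles, Prmt5-null). The 63-base exon lies at 0.967 to 0.977 in controls and at 0.788 to 0.834 in Prmt5-null iGBs. The level of the 81-base exon, as set against the 45-base exon, lies at 0.037 to 0.058 and 0.180 to 0.198. A transcript can hold both of these exons, so the second level is no share of all transcripts.

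The other genes of the pathway were counted in 5 lists of 46 genes, of which 44 were tested. Of these, 4 were lower (9.09%), 3 higher (6.82%) and 37 not called, with a median log2 fold change of 0.04. These shares are near those of all genes tested, 7.33% and 6.51%, so the counts are no result about the pathway, and the genes are given below one by one. Among the 7 genes for proteins that bind the S, X and Y boxes, 1 was higher. It was Nfyb, a subunit of the NF-Y complex that binds the Y box, with 3424 ± 209 normalized counts in Prmt5-null and 2587 ± 98.3 in control iGBs (SD, n = 4 each; log2 fold change 0.40, adjusted p = 0.00379 by limma). The RFX genes Rfx5, Rfxap and Rfxank, the NF-Y genes Nfya and Nfyc, and Creb1 were not called. Of these, Creb1 and Nfya had deposited splicing events.

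Among 12 upstream regulators of Ciita, 2 were lower and 0 higher. Prdm1, whose product Blimp-1 represses Ciita in plasma cells, had 851 ± 147 normalized counts in Prmt5-null and 1187 ± 178 in control iGBs (SD, n = 4 each), with overlap between the groups (log2 fold change -0.48, adjusted p = 0.0428 by limma). Leaving out PRMT5-10617 or PRMT5-10770 or CTRL-10650, CTRL-10596 or CTRL-10597 took its adjusted p to between 0.0730 and 0.123. With the experiment as a block, Prdm1 was called in 10 of 18 placements, with an adjusted p of at most 0.0669. Spi1, which encodes PU.1, had 1405 ± 52.0 and 1726 ± 83.7 (log2 fold change -0.30, adjusted p = 0.0218 by limma), and it lost its call without PRMT5-10771 or CTRL-10370 or CTRL-10596, at 0.0507 to 0.0689. The other 10, among them Irf4, Irf8, Pax5, Stat6 and the IL-4 receptor gene Il4ra, were not called.

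The processing of antigen and the invariant chain in endosomes was represented by 11 genes, of which 2 were higher and 0 lower. Ctsd, the aspartic protease cathepsin D, had 6131 ± 548 normalized counts in Prmt5-null and 4217 ± 306 in control iGBs (SD, n = 4 each; log2 fold change 0.54, adjusted p = 0.00162 by limma). Ctsh, the aminopeptidase cathepsin H, had 14344 ± 885 and 11575 ± 933 (log2 fold change 0.31, adjusted p = 0.0252 by limma). Ctsh lost its call without PRMT5-10618 or PRMT5-10771 or CTRL-10650 or CTRL-10597, at 0.0527 to 0.0751. Ctss, the main invariant chain protease of B cells, was not called, at 12949 ± 1504 and 11827 ± 899 (log2 difference 0.13, 95% interval -0.08 to 0.33).

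Of 13 genes for the turnover and traffic of class II molecules, Ap3b1, a subunit of the AP-3 sorting complex, was lower, with 4348 ± 158 against 5597 ± 119 normalized counts (SD, n = 4 each; log2 fold change -0.36, adjusted p = 0.00348 by limma). The other 12 were not called. March1, a ubiquitin ligase that sends class II molecules to lysosomes, had a log2 difference of 0.58 (95% interval 0.13 to 1.04, adjusted p = 0.0838 by limma) and a deposited splicing event. Cd83, whose product opposes that ligase, had a difference of 0.06 (95% interval -0.11 to 0.22).

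**Figure D5:**
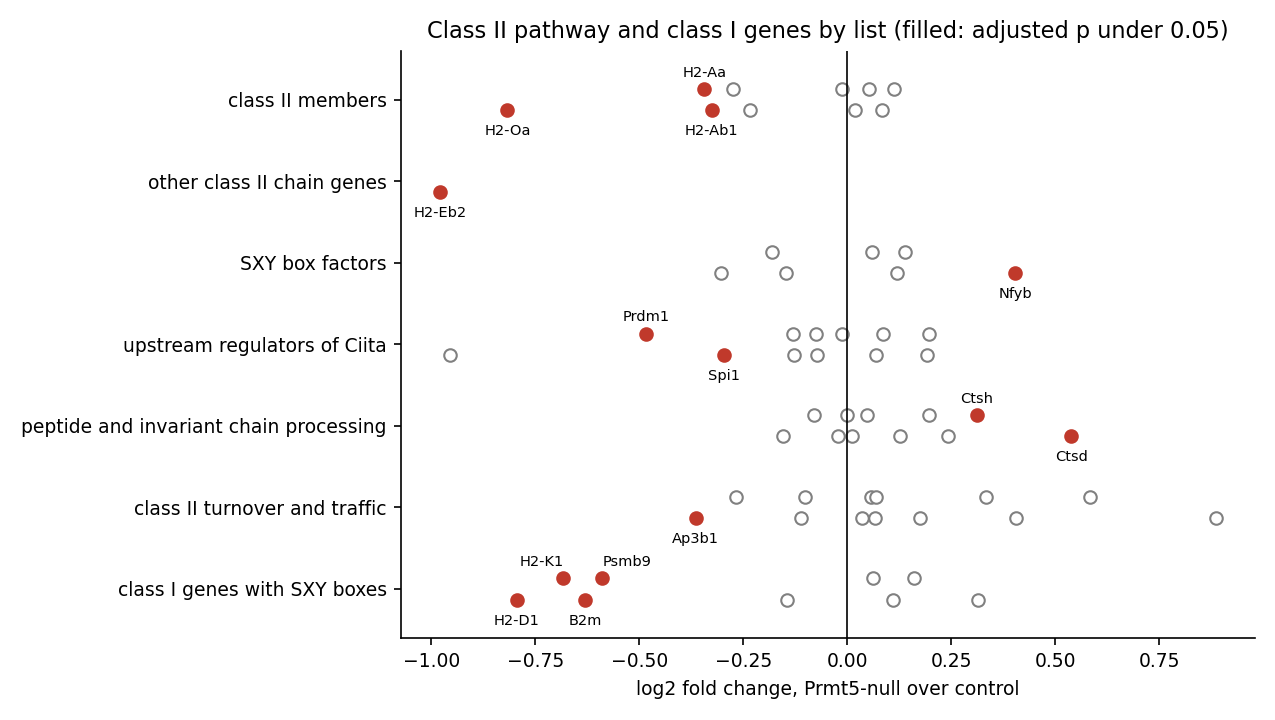
Log2 fold change, Prmt5-null over control, of the tested genes in each list, with 1 circle per gene and 4 libraries per genotype. Filled and named circles passed an adjusted p of 0.05, and those of the class II genes and of the class I genes lie below 0.

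The class II genes were set beside their nearest relatives. H2-Eb2, whose promoter is shown above, had 1280, 1414, 1412 and 1233 normalized counts in Prmt5-null libraries and 2399, 3233, 2617 and 2346 in controls, in the same order of mice. It was lower by -0.98 (95% interval -1.21 to -0.75, adjusted p = 0.000186 by limma), with a wide gap between the groups. H2-Eb1, H2-DMb1, H2-DMb2 and H2-Ob hold the same ordered pair of motifs as H2-Eb2, and their log2 differences ran from -0.27 to 0.05. H2-Aa and H2-Oa, which were lower, held the Y box letters without the X core. H2-DMa, which was not called, held neither, and H2-Ab1, which was lower, had no entry. The motifs were chosen after the sequences were seen, and no relation of motif to change was tested.

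Class I promoters also carry S, X and Y boxes, which are served by NLRC5, a relative of CIITA. A list of 9 genes of class I presentation, Nlrc5 itself among them, was taken by name and not by boxes found in their promoters. Of these 9 genes, 4 were lower and 0 higher. Each of the 4 was lower by at least 1.5-fold, where 2.99% of all genes tested were lower by that much. The class I heavy chain genes H2-D1 and H2-K1 had log2 fold changes of -0.79 (adjusted p = 0.000176 by limma) and -0.68 (adjusted p = 0.000274 by limma). The light chain gene B2m had -0.63 (adjusted p = 0.000684) and Psmb9 -0.59 (adjusted p = 0.0028), also by limma. Psmb9 was just past 1.5-fold. It came to -0.55, -0.58, -0.58 and -0.52 without PRMT5-10617, PRMT5-10771, CTRL-10650 and CTRL-10370 and to -0.57 under upper quartile scaling, and B2m came to -0.58 without CTRL-10650, all short of 1.5-fold. Nlrc5, Tap1, Tap2, Tapbp and Psmb8 were not called. H2-K1 had 27171 ± 531 normalized counts in Prmt5-null and 43750 ± 3264 in control iGBs (SD, n = 4 each). Whether the fold changes of class I and class II genes differ was not tested.

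Of 10 tested genes that lie between or beside the class II genes on chromosome 17, 3 were lower, where 7.33% of all genes tested were. Psmb9, already counted in the class I list, was among them. The others were Btnl1 at -1.65 (adjusted p = 0.0011 by limma) and Btnl2 at -1.10 (adjusted p = 0.00667 by limma), both of butyrophilin-like proteins and both low, at 136 to 283 and 85.6 to 111 normalized counts in the control libraries. Brd2, Tap1, Tap2 and Psmb8, which sit among the class II genes, were not called.

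Markers of cell types were summed in each library, since other cells could bring or dilute class II RNA. The calls in these short lists stand beside 7.33% lower and 6.51% higher among all genes tested. The 8 B cell markers summed to 184827 to 218067 normalized counts in Prmt5-null and 183407 to 208795 in control libraries, and 1 of them, Cd79a, was lower (log2 fold change -0.74, adjusted p = 0.000327 by limma). The 6 plasma cell markers summed to 37696 to 45364 and 41183 to 58381, with Prdm1 and Xbp1 lower. The other 4 were not called, with log2 differences of 0.19 for Irf4, 0.16 for Sdc1, 0.40 for Tnfrsf17 and -0.57 for Jchain. The 6 germinal center markers had 2 lower, Gcsam and S1pr2, and 2 higher, Fas and Mef2b, and summed to 27708 to 28897 and 20984 to 26448. Of 11 myeloid and dendritic markers, 4 (Csf1r, Itgax, Cd209a and Clec9a) were under the filter, at 0 to 19.5 normalized counts. Of the 7 tested, Adgre1 was higher and Lyz2, Itgam, Flt3, Zbtb46, Xcr1 and Batf3 were not called. The list summed to 6753 to 8507 normalized counts in Prmt5-null and 5925 to 7771 in control libraries. Most of this was Flt3, at 5521 ± 622 and 5054 ± 808, and Zbtb46, at 1954 ± 133 and 1676 ± 156 (SD, n = 4 each). Among the T cell markers, Cd3e was at 0 in all libraries. Cd3d, Cd3g, Cd4, Cd8a and Cd8b1 were under the filter, at 0 to 11.1 normalized counts. Lck, the 1 tested T cell marker, was lower, at 304 to 462 normalized counts in Prmt5-null and 660 to 780 in control libraries.

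Of 10 fibroblast markers, 8 were tested and 3 were higher in Prmt5-null iGBs, where 6.51% of all genes tested were. They were Col3a1, Sparc and Col1a2, higher by 1.02, 0.83 and 0.72 on the log2 scale. The list summed to 5399 to 9449 normalized counts in Prmt5-null and 3372 to 6008 in control libraries. The 10 class II genes summed to 460314 to 485092 and 508240 to 567731 in the same libraries. The part of the plasma cell and fibroblast markers in the class II differences was not tested.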

How the data were processed

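RNA-seq of day 4 iGBs, with 4 Prmt5-null and 4 control libraries, was used. The authors depleted ribosomal RNA, made stranded libraries, trimmed reads (Trimmomatic 0.32), aligned them to GRCm38 (STAR 2.3.0e) and counted uniquely mapped exonic reads (featureCounts 1.4.4). The authors deposited the counts as a signal, each divided by its library's DESeq2 1.14.1 size factor. The strand setting of the counting is not given in the sources used here, so genes that overlap others are uncertain. Uniquely mapped reads leave near-identical copies uncertain too. From rMATS the authors deposited inclusion levels, as fractions, with read counts in lists of 4 per side that name no library. Side 1 was read as control, because the floxed Prmt5 exon has levels of 0.989 to 1 there and 0.027 to 0.304 on side 2. The columns of the authors' own p-values, FDR values and differences between genotypes gave no value here, though the sign of the differences was seen when the sides were read, and 0 columns of per-sample values were left out.

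All deposited values were whole multiples of what 1 read is worth in the library (100% within 0.01 of a read), so depth could be recovered, and the depth of each library limits only low genes here. Genotypes were compared with limma 3.58.1 (lmFit, eBayes with a trend, two-sided) in R 4.3.3 on log2(normalized count + 1), which understates the change of low genes, for 16250 genes with a mean of at least 10. The 95% intervals are those of limma for 1 gene. Tests on the recovered reads with edgeR 4.0.16 (quasi-likelihood) and with DESeq2 1.42.0 (Wald) served as alternatives. At an adjusted p below 0.05, limma called 2249 genes of the whole table, edgeR 2274 and DESeq2 3075. Scripts were tested on simulated data. Other steps used Python 3.11.15, pandas 2.3.3, NumPy 2.4.6, SciPy 1.17.1 and matplotlib 3.10.9.

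The 10 genes, the lists and the tests were chosen with earlier results of these data known, and the 2 motifs after the promoter sequences were seen. All 10 genes are named. From each other list the text names at most the 6 largest changes with an adjusted p below 0.05, and genes most like H2-Ab1 and Ciita are the 5 with the highest Pearson r. Genes named beyond this rule, such as Ctss, March1, Cd83 and overlapping genes, were chosen after their values were seen. Alternatives changed the pseudocount, the filter, the scaling, the trend, the tool, the threshold and the libraries, added the experiment as a block in 18 placements, and, chosen after seeing the data, summed H2-DMb1 and H2-DMb2. Nothing in the labels pairs a control with a Prmt5-null mouse.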

Additional observations from a re-analysis of the deposited data

Results flagged for a closer look

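In 48 groups of 4 libraries, 1 library was set against the others, and 3 stood apart by Dixon's test at the 95% level, which chance gives in about 5% of groups. H2-Aa in CTRL-10597 had 77144 normalized counts, where the nearest control had 86487. H2-Ab1 in PRMT5-10770 had 73640 normalized counts, where the nearest Prmt5-null library had 64920. The ratio of H2-O to H2-DM genes in CTRL-10650 was 0.153, where the nearest control had 0.211.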

How the results depend on the processing

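H2-Oa passed the test in all 36 alternatives, with a log2 fold change from -0.86 to -0.77 and an adjusted p of at most 0.00217. The count of 1 class II gene with an adjusted p below 0.05 and 1.5-fold was also the same in all 36. The count of 3 lower genes at an adjusted p below 0.05 was 1 with no filter on low values, 5 with DESeq2's Wald test and 1 at an adjusted p below 0.01. It ran from 1 to 4 as each library was left out, with 1 without PRMT5-10617 or PRMT5-10771 or without CTRL-10650, CTRL-10370 or CTRL-10596, and from 2 to 4 with the experiment as a block. H2-Aa passed in all 18 placements of the block, H2-Ab1 in 9 and H2-Eb1 in 5. Cd74 passed with DESeq2 alone (adjusted p = 0.0243). The 7 calls among the other pathway genes were 4 at an adjusted p below 0.01, and 5 to 8 as each library was left out. The difference of H2-DMb1 changed sign under upper quartile scaling, to 0.0037, and ran from -0.11 to 0.060 as each library was left out. That of H2-Ob changed sign with edgeR, to -0.00085, and with DESeq2, to -0.00063, and ran from -0.14 to 0.084 as each library was left out. The cause of these changes was not tested. No paired analysis was possible because the groups share no replicate numbers. Depth was not the limit for these 10 genes, since the lowest value of any, H2-Oa in PRMT5-10771, was 1538 normalized counts.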
